A study of Mus musculus with 2 samples.

Results

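Brg1 tags were described at 4 loci that hold 6 microRNA genes known from fibroblasts and other mesenchymal cells: Mir21, Mir29a with Mir29b-1, Mir143 with Mir145, and Mir214. A locus is the interval of 40 kb to each side of a position in mm9, so that 4 intervals of 80 kb were taken, of 29818 such intervals on the autosomes with at least 10 tags. Their choice was made with the ratio of ChIP to input tags in view. The ratios below therefore describe the loci and were not tested. All values come from 2 libraries of wild-type primary mouse embryonic fibroblasts, taken at E13.5 from a mixed C57BL/6 and 129 background. In both, chromatin was cut with micrococcal nuclease and briefly sonicated. The Brg1 ChIP library was precipitated with a rabbit polyclonal antibody against Brg1, and the input library had no antibody. There is 1 library of each kind and no replicate check, and every interval printed covers counting error only. No RNA was measured, so neither the level of the microRNAs nor the cell type by its markers was checked.

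Brg1 is the ATPase of the Swi/Snf complex, which slides and evicts nucleosomes and so opens promoters and enhancers. A microRNA gene is transcribed like any other gene into a long primary transcript, from which Drosha cuts a hairpin and Dicer the short mature strand. The mature strand pairs with messenger RNAs mostly through its seed, bases 2 to 8, and lowers their translation and stability. miR-21 is abundant in fibroblasts and is raised in fibrosis and many tumours. The miR-29 family represses collagens and other matrix genes. miR-143 and miR-145 are made from a common transcript and are best known from smooth muscle, where serum response factor drives them. miR-214 is made from Dnm3os, a long noncoding RNA of mesenchyme that also gives miR-199a.

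The sequences of 4 of the 6 genes are given to show what these loci encode and which of them share a seed (RefSeq, GRCm38.p6). Mir21 is named Mir21a there. In the 4 mature strands best known as active, the seed is in capitals.
miR-21a-5p: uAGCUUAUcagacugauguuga
miR-29a-3p: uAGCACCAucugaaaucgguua
miR-29b-3p: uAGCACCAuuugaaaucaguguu
miR-214-3p: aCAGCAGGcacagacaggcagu
miR-29a-3p and miR-29b-3p have the same seed, so that both genes of the locus on chromosome 6 make strands of a single seed family, with miR-29c-3p as the other mouse member in the table. They were identical at 18 of 22 bases compared from the 5′ end, and miR-29b-3p differed by C10U, G18A, U21G and A22U, counted from 1 at the 5′ end of miR-29a-3p. The seed of miR-21a-5p was shared with miR-21c and that of miR-214-3p with miR-761, neither of which is made at these loci. In the hairpins both mature strands are in capitals.
Mir21: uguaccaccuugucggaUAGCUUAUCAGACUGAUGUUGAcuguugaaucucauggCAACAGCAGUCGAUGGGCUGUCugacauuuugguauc
Mir29a: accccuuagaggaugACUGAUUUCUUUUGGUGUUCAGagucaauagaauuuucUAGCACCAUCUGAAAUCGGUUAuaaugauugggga
Mir29b-1: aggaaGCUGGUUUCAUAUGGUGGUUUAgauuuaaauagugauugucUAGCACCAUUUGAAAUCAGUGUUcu
Mir214: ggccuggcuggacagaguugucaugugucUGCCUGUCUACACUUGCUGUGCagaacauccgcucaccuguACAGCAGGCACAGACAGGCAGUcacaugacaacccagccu
In GRCm38.p6, Mir21, Mir29a and Mir29b-1 lie on the minus strand and Mir214 on the plus strand. By the order of genes in that assembly, Mir21 lies within Vmp1, Mir143 and Mir145 within the noncoding gene Carmn, and Mir214 within Dnm3os and Dnm3, next to Mir199a-2. Mir29a and Mir29b-1 lie between Gm40359 and Lncpint. No position was carried over from GRCm38 to mm9, so the starts of these genes are not placed in the windows below.

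Brg1 ChIP tags exceeded scaled input tags at all 4 intervals, and the order of the loci was Mir21, Mir29a/Mir29b-1, Mir214 and Mir143/Mir145. The autosomal totals set the scale, at 2.36 tags of ChIP to each of input, after each tag was moved 75 bp along its strand. The Mir21 interval, chr11:86357500-86437499, held 1387 tags in the ChIP and 268 in the input, a ratio of 2.20 (exact 95% interval 1.93 to 2.51). The Mir29a/Mir29b-1 interval, chr6:30973000-31052999, held 1398 against 284, a ratio of 2.09 (1.84 to 2.38). The intervals of these ratios overlap almost wholly, so that the order of the first pair is within counting error. The Mir214 interval, chr1:164113500-164193499, held 1121 against 259, a ratio of 1.84 (1.60 to 2.11). The Mir143/Mir145 interval, chr18:61768000-61847999, held 1000 against 276, a ratio of 1.54 (1.34 to 1.76). With 20 kb to each side, Mir214 stood above Mir29a/Mir29b-1, at 2.34 (1.92 to 2.88) against 2.23 (1.86 to 2.70), which is within counting error. The intervals of neighbours in the order of the 80 kb ratios overlapped, while that of Mir143/Mir145 lay wholly below those of Mir21 and Mir29a/Mir29b-1.

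Set among the 29818 autosomal intervals, whose median ratio was 0.917 and whose 95th percentile was 1.44, all 4 loci lay in the upper tail. Mir21 ranked 20, Mir29a/Mir29b-1 ranked 40, Mir214 ranked 181 and Mir143/Mir145 ranked 896 from the top. Mir143/Mir145 was thus above 97.0% of the intervals and each of the others was above at least 99.4%. Within its own chromosome each locus stood at much the same place, from 96.9% of the intervals of chromosome 18 to 99.9% of those of chromosomes 6 and 11. These ranks describe loci that were picked with the ratio known.

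**Figure D1:**
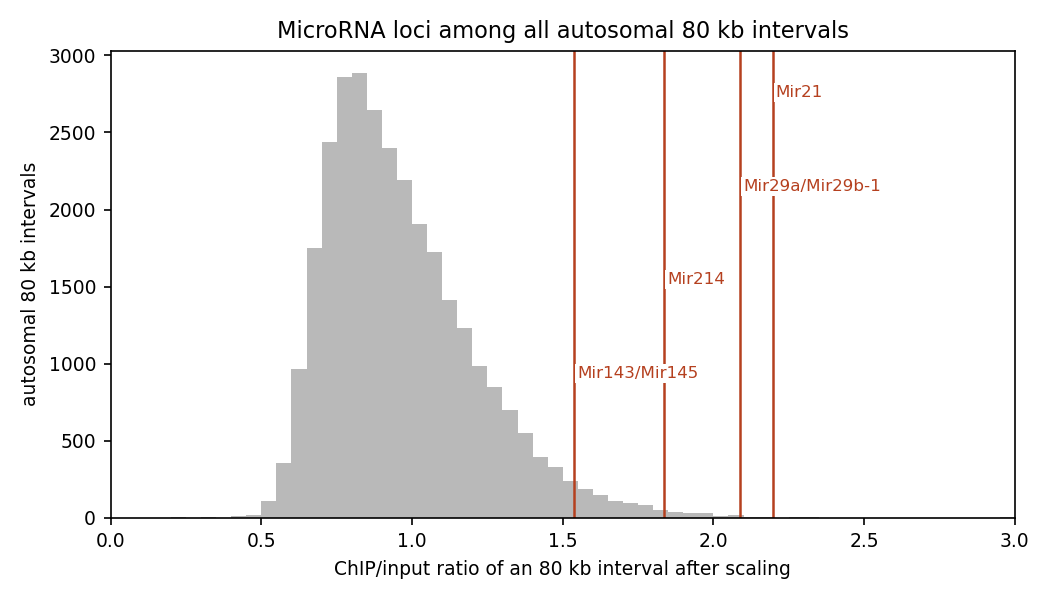
ChIP/input ratio after scaling (x axis) for the 29818 autosomal intervals of 80 kb with at least 10 tags (grey, number of intervals on the y axis), with the 4 microRNA loci as lines. The loci lie at 1.54 to 2.20, against a median of 0.917; the 4 intervals at 3 or more are counted in the last bin.

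The ChIP library, and to a lesser degree the input, was dense at these loci. ChIP density was 3.13 times the autosomal mean at Mir21 (2.97 to 3.30), 3.16 times at Mir29a/Mir29b-1 (2.99 to 3.33), 2.53 times at Mir214 (2.38 to 2.68) and 2.26 times at Mir143/Mir145 (2.12 to 2.40). Input density was also above its mean, at 1.43 times (1.26 to 1.61), 1.51 times (1.34 to 1.70), 1.38 times (1.22 to 1.56) and 1.47 times (1.30 to 1.65) for the same loci in the same order. The input thus differed little between the loci, and the ratios were ordered mainly by the ChIP tags. Among the loci, input density did not follow the order of the ratios. Mir143/Mir145, with the lowest ratio (1.54), had input at 1.47 times its mean. Mir214, with the lowest input density (1.38 times), had a ratio of 1.84. The part of dense input in the ratios was not tested.

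Windows of 10 kb showed that the ChIP signal was spread over wide stretches and did not fill any interval evenly. Over the 32 windows, ChIP tags ranged from 64 to 322 and input tags from 20 to 45. A ratio of at least 1.5 was found in 21 of the 32, where 11.0% of 235208 autosomal 10 kb windows with at least 10 tags had one. With the scale set on windows of at most the median ChIP count, it was 25 of 32, where 29.3% of autosomal windows passed. Since the loci were picked on this contrast, nothing is read from these counts. The lowest ratio past the threshold was 1.51 and the highest short of it 1.42.

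**Figure D2:**
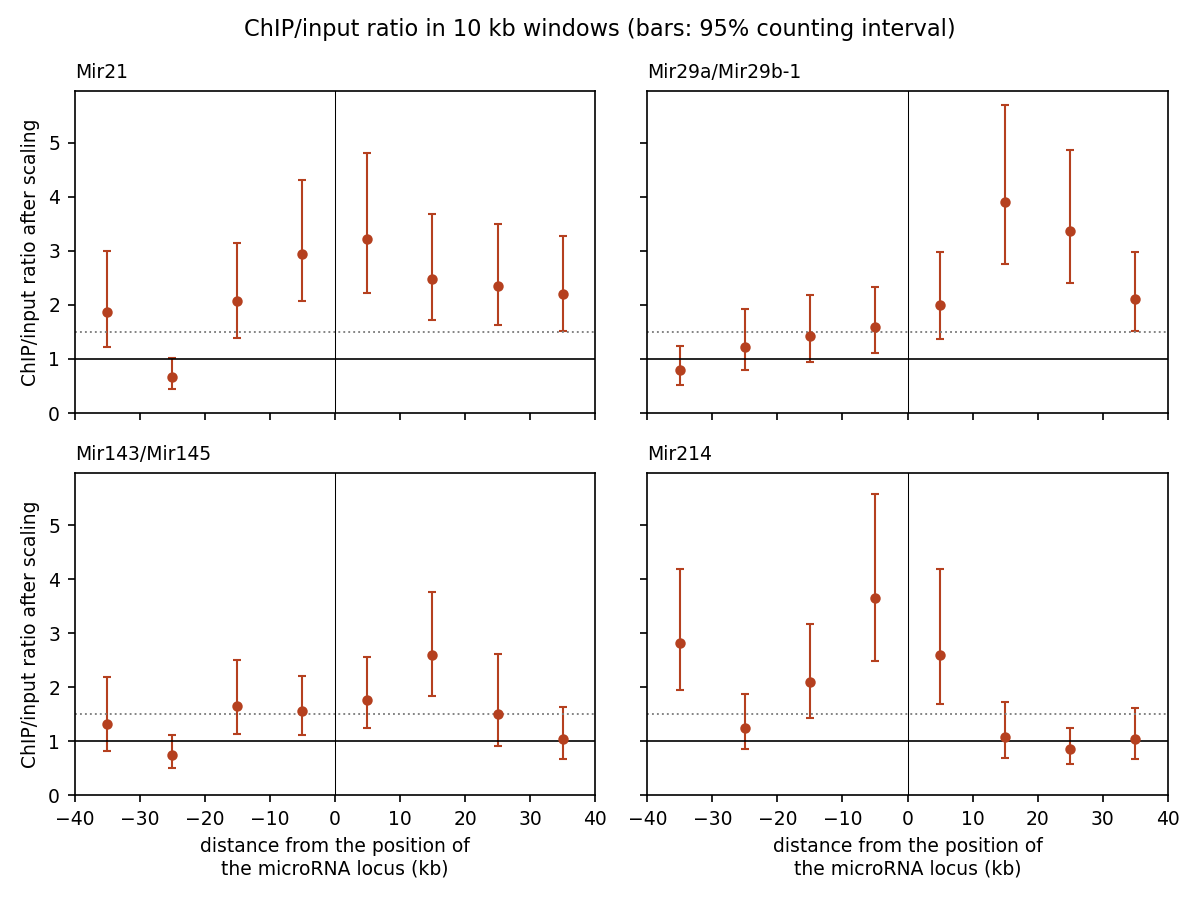
ChIP/input ratio after scaling (y axis) in the 8 windows of 10 kb of each locus, by distance from its mm9 position (x axis, kb). Points are ratios, bars exact 95% counting intervals, the solid line a ratio of 1 and the dotted line 1.5; the highest window is 3.90, at 10 to 20 kb from Mir29a/Mir29b-1.

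At Mir21 the signal covered the position of the microRNA and the whole side of higher positions. From low to high positions the 8 windows held 115, 65, 151, 250, 243, 199, 188 and 176 ChIP tags, against 26, 41, 31, 36, 32, 34, 34 and 34 input tags. The window of 0 to 10 kb was the highest, with a ratio of 3.22 (2.22 to 4.82), above 99.7% of autosomal windows, and that of -30 to -20 kb the lowest, with 0.67 (0.45 to 1.02). The 6 windows from -20 kb to 40 kb all had ratios of 2.07 or more, so that the block ran on to the upper end of the interval. The central 10 kb around the position held 258 tags in the ChIP and 33 in the input, a ratio of 3.32 (2.30 to 4.92).

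The Mir29a/Mir29b-1 locus had the window with the most ChIP tags of the 32, and it did not lie at the position of the hairpins. From low to high positions the windows held 64, 83, 107, 142, 160, 322, 302 and 218 ChIP tags, against 34, 29, 32, 38, 34, 35, 38 and 44 input tags. The ratio was 3.90 (2.75 to 5.70) at 10 to 20 kb, above 99.9% of autosomal windows, and 3.37 (2.40 to 4.86) at 20 to 30 kb, and it was lowest, at 0.80 (0.52 to 1.25), at -40 to -30 kb. The ChIP count was higher in each successive window up to 20 kb, while the input showed no such order. In the central 10 kb there were 163 tags in the ChIP and 35 in the input, a ratio of 1.98 (1.36 to 2.94), lower than both of those windows.

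At Mir143/Mir145 the ratios of the whole interval and of its central 10 kb were the lowest of the 4 loci, and the position of the hairpins lay between higher stretches. From low to high positions the windows held 75, 76, 133, 165, 171, 233, 71 and 76 ChIP tags, against 24, 43, 34, 45, 41, 38, 20 and 31 input tags. The highest ratio was 2.60 (1.84 to 3.77) at 10 to 20 kb, above 99.0% of autosomal windows, and the lowest 0.75 (0.51 to 1.12) at -30 to -20 kb. The central 10 kb held 131 against 44, a ratio of 1.26 (0.89 to 1.82), whose interval includes 1. The interval lay above 1 with 20 kb in place of 10 kb, at 1.66 (1.30 to 2.13), and under a scale set on ChIP-poor windows, at 1.71 (1.21 to 2.46). It included 1 with 4 kb, at 1.16 (0.66 to 2.11). The same held for the 10 kb with scaling to all chromosomes, with repeated tags removed and with tags not moved. The central 10 kb was the lowest of the central values and stood above 80.2% of autosomal windows.

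The Mir214 locus carried its signal at the hairpin and on the side of lower positions. From low to high positions the windows held 219, 109, 158, 250, 147, 74, 86 and 78 ChIP tags, against 33, 37, 32, 29, 24, 29, 43 and 32 input tags. The ratio was highest, at 3.66 (2.49 to 5.58), at -10 to 0 kb, above 99.9% of autosomal windows, and lowest, at 0.85 (0.58 to 1.25), at 20 to 30 kb. The 3 windows beyond 10 kb had ratios of 0.85 to 1.08, so that on that side the 10 kb ratios were near 1. Ratios of at least 3 were found there in the single kilobases at 13 to 14 kb, with 11 ChIP tags against 1 input tag, and at 20 to 21 kb, with 31 against 4. The central 10 kb held 216 against 27, a ratio of 3.39 (2.27 to 5.27), close to the 3.32 of Mir21.

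The tags of the single kilobases show more closely where ChIP tags were many and where they fell. Along the 80 windows of 1 kb, ChIP tags ran from 0 to 42 at Mir21 (median 16), from 0 to 58 at Mir29a/Mir29b-1 (median 14), from 0 to 40 at Mir143/Mir145 (median 10) and from 2 to 41 at Mir214 (median 10.5). Input tags ran from 0 to 9 over all 4 loci, with medians of 3 or 4. At Mir143/Mir145 the ChIP tags fell within a few kilobases, and the 4 windows from 16 to 20 kb held 25, 29, 13 and 3. The input there held 5, 6, 3 and 1 tags, so that it fell as well, and the ratios were 2.12, 2.05, 1.84 and 1.27. The 10 kb that follow, with 71 against 20, had a ratio of 1.51 (0.91 to 2.61). Another stretch at that locus, from -11 to -7 kb, had 31, 27, 29 and 27 ChIP tags, against 5, 8, 6 and 3 input tags. The window after it had 9 against 3. At Mir214, the 6 windows from -40 to -34 kb held 26, 35, 32, 30, 27 and 36 ChIP tags, against 5, 3, 5, 0, 5 and 1 input tags, and the next had 10 against 2.

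**Figure D3:**
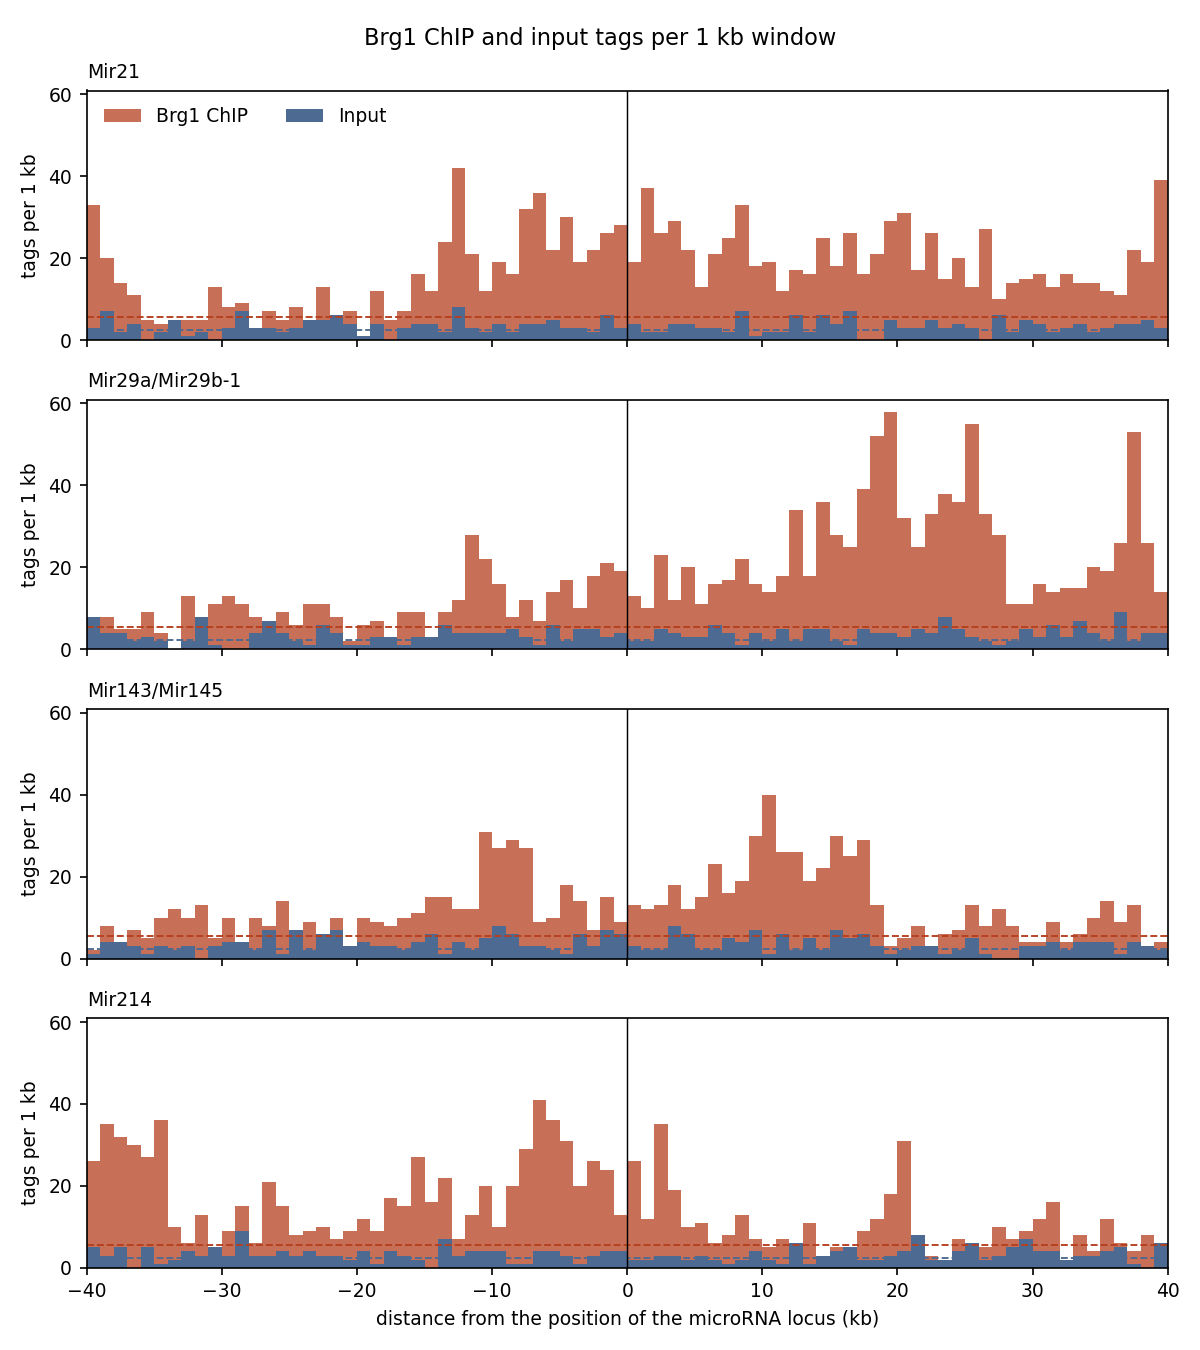
Tags per 1 kb window (y axis, both libraries drawn from 0 and one in front of the other, not scaled to each other) by distance from the mm9 position of each locus (x axis, kb), with the autosomal means as dashed lines. ChIP tags reach 58 per kb at Mir29a/Mir29b-1, while input tags stay at 9 or fewer at all 4 loci.

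A ratio of at least 3 in 1 kb was found in 64 of the 265 windows with at least 10 tags, or 24.2%, where 12.9% of 700982 autosomal windows had one; the remaining 55 of the 320 windows held fewer than 10 tags. There were 18 such windows at Mir21, 20 at Mir29a/Mir29b-1, 10 at Mir143/Mir145 and 16 at Mir214. Where the local mean of the input over 10 kb replaced any lower count, 39 were left in all, where 4.21% of autosomal windows passed, and 13, 12, 1 and 13 at the loci in that order, so that most of those at Mir143/Mir145 rested on a low input count. With a minimum of 20 tags in place of 10, 50 of 123 windows passed, close to the 38.4% of autosomal windows that did. They were 15 of 40 at Mir21, 16 of 37 at Mir29a/Mir29b-1, 5 of 20 at Mir143/Mir145 and 14 of 26 at Mir214. Mir21 and Mir143/Mir145 were thus below the autosomal share. Since the loci were picked on this contrast, nothing is read from the counts of 1 kb windows. Touching windows among the 64 merged into 43 regions, of which 36 were 1 kb wide. Each region joins windows already at a ratio of at least 3, so its own ratio is at least 3 by construction. The counting intervals of the regions do not allow for that choice. The widest regions were both 7 kb. That of Mir29a/Mir29b-1, chr6:31027000-31033999, from 14 to 21 kb, held 270 tags in the ChIP and 24 in the input, a ratio of 4.77 (3.14 to 7.58). That of Mir214, chr1:164144500-164151499, from -9 to -2 kb, held 203 against 17, a ratio of 5.07 (3.09 to 8.87). A further region of 4 kb at Mir29a/Mir29b-1, chr6:31037000-31040999, held 152 against 11, a ratio of 5.86 (3.19 to 12.0). At Mir21 the widest regions were both 3 kb, and that next to the position, chr11:86398500-86401499, held 92 against 8, a ratio of 4.88 (2.38 to 11.6).

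By the lower bound of the ratio, the leading single kilobases lay away from the position at all 4 loci, except that of 1 to 2 kb at Mir21. At Mir29a/Mir29b-1 they were at 37 to 38 kb, with 53 ChIP tags against 2 input tags and a ratio of 11.2 (2.96 to 95.3), at 25 to 26 kb, with 55 against 3 and 7.78 (2.53 to 38.9), and at 19 to 20 kb, with 58 against 4 and 6.15 (2.28 to 23.3). At Mir143/Mir145 the first was at 10 to 11 kb, with 40 against 1 and a ratio of 17.0 (2.88 to 687), followed by 12 to 13 kb, with 26 against 2 and 5.52 (1.38 to 48.0), and by -32 to -31 kb, with 13 against 0. At Mir214 they were at -37 to -36 kb, with 30 against 0, at -35 to -34 kb, with 36 against 1 and 15.3 (2.57 to 620), and at -8 to -7 kb, with 29 against 1 and 12.3 (2.04 to 503). These wide intervals come from the input, in which 0 to 4 tags set the ratio. Where that local mean replaced any lower input count, the ratio was 5.0 at 37 kb from Mir29a/Mir29b-1, 4.35 at 10 kb and 2.63 at 12 kb from Mir143/Mir145, and 4.77 at -35 kb and 3.85 at -8 kb from Mir214.

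At Mir21 the windows with the highest lower bounds were at 26 to 27 kb, with 27 ChIP tags against 0 input tags, at 18 to 19 kb, with 21 against 0, and at 1 to 2 kb, with 37 against 2 and a ratio of 7.85 (2.03 to 67.2). The last of these had a ratio of 4.76 against the local mean of the input. Where the input had no tag, a floor of 3 tags per window took its place. Against it the ratios were 3.82 and 2.97 at Mir21, 1.84 at Mir143/Mir145 and 4.24 at Mir214. Their exact lower 95% bounds were 2.90, 2.21, 1.29 and 3.24. Against the local mean of the input the same windows had ratios of 3.27, 2.48, 2.04 and 3.98. The floor leaves out the counting error of the ChIP tags, and the exact bounds include it.

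The kilobase that begins at the position of each locus was less marked. It held 19 ChIP tags against 4 input tags at Mir21 (ratio 2.02, 0.67 to 8.15), 13 against 2 at Mir29a/Mir29b-1 (2.76, 0.62 to 25.2), 13 against 3 at Mir143/Mir145 (1.84, 0.51 to 10.1) and 26 against 2 at Mir214 (5.52, 1.38 to 48.0). Of these, the interval of Mir214 alone lay above 1. The windows with the lowest upper bounds held 9 against 7 at Mir21, at -29 to -28 kb (0.55, 0.18 to 1.72), and 4 against 8 at Mir29a/Mir29b-1, at -32 to -31 kb (0.21, 0.05 to 0.79). At Mir143/Mir145 such a window held 3 against 7, at -25 to -24 kb (0.18, 0.03 to 0.80), and at Mir214 4 against 6, at 25 to 26 kb (0.28, 0.06 to 1.19). All 4 lay on the side of the locus that was the poorer in ChIP tags.

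The sides of the loci differed, a comparison chosen after the values were seen. At Mir21 the 40 kb of higher positions held 806 tags in the ChIP and 134 in the input, a ratio of 2.55 (2.12 to 3.09), and the 40 kb of lower positions 581 against 134, a ratio of 1.84 (1.52 to 2.24). At Mir29a/Mir29b-1 the side of higher positions held 1002 against 151 (2.82, 2.37 to 3.36) and that of lower positions 396 against 133 (1.26, 1.04 to 1.55). At Mir143/Mir145 they held 551 against 130 (1.80, 1.48 to 2.19) and 449 against 146 (1.31, 1.08 to 1.58). At Mir214 the order was the other way round, with 385 against 128 on the side of higher positions (1.28, 1.04 to 1.57) and 736 against 131 on that of lower positions (2.38, 1.98 to 2.89). The intervals of the sides did not overlap at Mir29a/Mir29b-1 and Mir214, overlapped at Mir21 and overlapped at Mir143/Mir145. Given the strands in GRCm38.p6, and if mm9 has the same orientation, the richer side was that upstream of the hairpin at Mir21, Mir29a/Mir29b-1 and Mir214; the strand of Mir143 and Mir145 was not used here.

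Beyond the intervals the loci parted further. On the side of higher positions of Mir21, the next 80 kb held 990 tags in the ChIP and 231 in the input, a ratio of 1.82 (1.57 to 2.11), and on the other side the next 80 kb held 686 against 264, a ratio of 1.10 (0.96 to 1.28). In windows of 20 kb the ratio was 3.02 (2.28 to 4.06) at 160 to 180 kb from Mir21, from 398 against 56 tags, and 2.84 (2.19 to 3.74) at 0 to 20 kb. At Mir29a/Mir29b-1 the next 80 kb had ratios of 1.39 (1.21 to 1.60) on the side of higher positions and 0.76 (0.64 to 0.90) on the other. At Mir214 the next 80 kb had 1.04 (0.88 to 1.23) on the side of higher positions and 1.89 (1.63 to 2.20) on that of lower positions. The latter was close to the 1.84 (1.60 to 2.11) of the locus itself. At Mir143/Mir145 the flanks had 1.19 (1.03 to 1.38) on the side of higher positions and 1.36 (1.18 to 1.57) on the other. Both were below the 1.54 (1.34 to 1.76) of the locus itself, with counting intervals that overlapped it. In single windows of 20 kb outside the intervals, the ratio was 1.92 (1.48 to 2.53) at 40 to 60 kb from Mir29a/Mir29b-1 and 1.90 (1.46 to 2.51) at -100 to -80 kb from Mir143/Mir145. High ratios thus went on beyond the interval on the richer side of Mir21, Mir29a/Mir29b-1 and Mir214. Windows near 1 were among them at Mir21 and Mir29a/Mir29b-1. At Mir29a/Mir29b-1 the ratio was 1.29 at 80 to 100 kb, 0.89 at 100 to 120 kb and 1.69 at 140 to 160 kb.

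**Figure D4:**
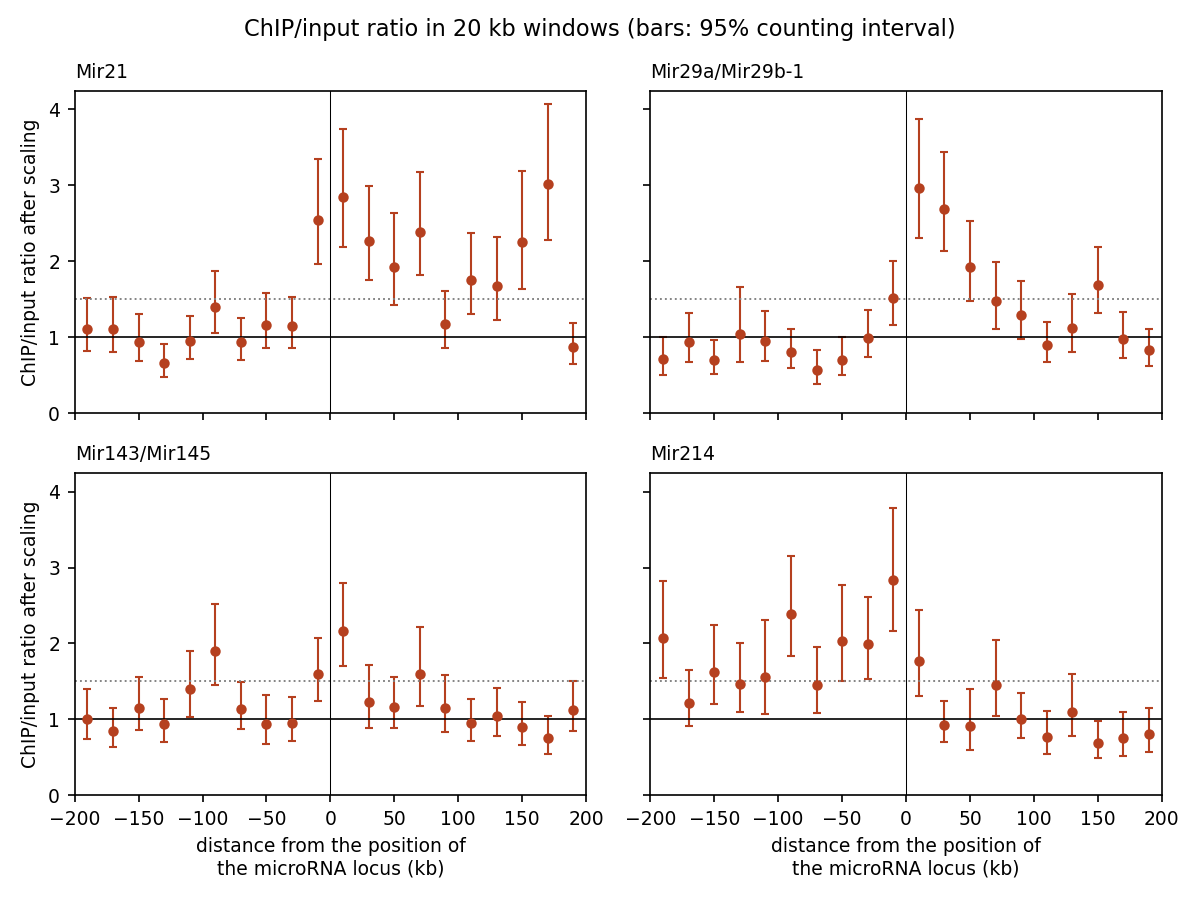
ChIP/input ratio after scaling (y axis) in windows of 20 kb out to 200 kb from each locus (x axis, kb); points are ratios, bars exact 95% counting intervals, the solid line a ratio of 1 and the dotted line 1.5. At Mir21 the ratio reaches 3.02 at 160 to 180 kb, and at Mir214 it is 2.84 at -20 to 0 kb and 0.93 at 20 to 40 kb.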

How the data were processed

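Brg1 ChIP and input chromatin of mouse embryonic fibroblasts were sequenced, with 1 library each. Per the submitters' processing notes, Bowtie and mm9 were used; version, settings and any filter on repeated tags are not given in the sources used here. The deposited values are counts of tags per position and strand, with no normalization by the authors. The ChIP library held 13581267 tags (13215004 autosomal) and the input 5778620 (5608004 autosomal), a mean of 5.54 and 2.35 tags per kb. Whether positions count from 0 or 1 is not stated, so those printed can be 1 bp away. Tags were moved 75 bp, counted in windows laid from the ends of each interval, and scaled to the autosomal totals. Ratios have exact conditional (Clopper-Pearson) 95% intervals and densities exact Poisson intervals, both for counting error only. Windows needed at least 10 tags. Per locus, the named windows were the 3 of 1 kb with the highest lower bound, the 1 with the lowest upper bound, the 1 at the position, and the highest and lowest of 10 kb. The members and rules were chosen with earlier results of these data known. The steps were tested on simulated data. Other scalings, repeated-tag filters, tag movement, window placement, sizes and minimums were tried. Python 3.11.15, numpy 2.4.6, scipy 1.17.1, pandas 2.3.3 and matplotlib 3.10.9 were used.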

Additional observations from a re-analysis of the deposited data

How the results depend on the processing

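No ratio of an interval, a side or a central 10 kb crossed 1, and all 28 alternatives for the central 10 kb stayed within the counting interval of the reported value. The named windows have intervals too wide to show stability. With tags not moved, the first of them went to 8.28 at Mir143/Mir145 (reported as 17.0), to 5.84 at Mir29a/Mir29b-1 (reported as 11.2) and to 12.7 at Mir214, where 1 input tag took the place of 0. Background scaling, which takes the totals of windows with at most the median ChIP count and so lowers the scale to 0.740 of its value, gave ratios of 2.97 at Mir21, 2.82 at Mir29a/Mir29b-1, 2.08 at Mir143/Mir145 and 2.48 at Mir214, and 106 windows of 1 kb at a ratio of 3, with the autosomal share at 19.9%. With 20 kb to each side the ratios were 2.69 at Mir21, 2.23 at Mir29a/Mir29b-1, 1.89 at Mir143/Mir145 and 2.34 at Mir214. Mir214 thus stood above Mir29a/Mir29b-1, by a difference within counting error. With 80 kb to each side they were 1.90 at Mir21 and 1.70 at Mir29a/Mir29b-1. Of 1 kb windows, 39 passed where the local mean replaced a lower input (autosomal share 4.21%), and of 160 windows of 2 kb, 32 (autosomal share 5.86%). With a minimum of 20 tags, 50 of 123 windows of 1 kb passed, close to the autosomal share of 38.4%. Of 64 windows of 5 kb, a size added after the data were seen, 35 had a ratio of at least 1.5 (autosomal share 15.6%); there are more windows by construction. At a ratio of at least 2, 14 of 32 windows of 10 kb passed (autosomal share 3.61%). Of 40 values for the sides of the loci 32 stayed within the counting interval and 8, all with background scaling, were above it. The richer side of each locus was the same under all settings tried for it. Scaling to all chromosomes and background scaling change both sides by the same factor, so they could not alter it. Only the repeated-tag filters and unmoved tags could have done so. No paired analysis was possible because there is 1 ChIP and 1 input library. With 2.35 tags per kb of input, depth limits what a 1 kb window can show.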

Other observations

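Tags of both strands made up the blocks. Plus-strand tags were 51.0% of the ChIP tags at Mir21 (exact 95% interval 48.3 to 53.6), 50.0% at Mir29a/Mir29b-1 (47.3 to 52.7), 50.2% at Mir214 (47.3 to 53.2) and 54.5% at Mir143/Mir145 (51.4 to 57.6), against 49.9% of the whole library. The leading kilobase of Mir143/Mir145 had 26 plus-strand and 14 minus-strand ChIP tags. In the input the share at that locus was 52.5% (46.5 to 58.6). The cause of the difference at Mir143/Mir145 was not tested.

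Positions with 2 ChIP tags were 1.84% of listed positions at Mir21, 1.75% at Mir29a/Mir29b-1, 1.52% at Mir143/Mir145 and 2.00% at Mir214, against 0.822% in the whole ChIP library. ChIP density at these loci was 2.26 to 3.16 times the autosomal mean, and its part in these shares was not tested. No position of the 4 intervals had 2 tags in the input. None could have, since the most at any position of chromosomes 1, 6, 11 and 18 was 1 input tag. In the whole ChIP library the most at any position was 2 tags. With at most 1 tag per position the interval ratios stayed inside the counting intervals of the reported values.

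Same-strand ChIP tags 160 to 189 bp apart, about a nucleosome's spacing, were 1.06 times as frequent per bp as those 900 to 999 bp apart over the 4 intervals, from 1490 and 4674 pairs. It was 1.05 at Mir21, 1.03 at Mir29a/Mir29b-1, 0.954 at Mir143/Mir145 and 1.23 at Mir214, against 1.09 on the autosomes. For pairs 240 to 299 bp apart it was 1.04 over the 4 intervals and 1.05 on the autosomes. By locus that was 1.03 at Mir21, 1.01 at Mir29a/Mir29b-1, 1.09 at Mir143/Mir145 and 1.05 at Mir214. Over the 4 intervals both distances thus gave close values, and no nucleosome spacing is read from them. The input had 48 pairs at 160 to 189 bp and 166 at 900 to 999 bp in the intervals, too few to describe.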
